A study of Mus musculus with 8 samples.

Results

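Transcripts of 34 genes expressed mainly in the liver were read in hearts of late mouse embryos. Of these genes, 30 code for proteins that hepatocytes release into the plasma and 4 (Cps1, Mat1a, Tat and Fabp1) for proteins that stay inside the cell. Every non-control probe whose transcript accession mapped to a listed gene was kept, which gave 41 of the 41174 probes on the array and 34 of the 19092 genes that could be named. The list was drawn up with the signals of these same 8 arrays in view, so the heart-by-heart levels chose the genes and are given as a description with no test.

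The hearts were taken at E18.5, shortly before birth, from 4 WT and 4 SIRT1 KO embryos, and each was hybridised to an array of its own. SIRT1 is an NAD+-dependent protein deacetylase, and the SIRT1 KO embryos lacked it through the germ line in the whole body, the liver as well as the heart. Both groups were on the C57BL/6 background, came from crosses of heterozygous parents fed normal chow, received no treatment, and hearts of both sexes were used. The hearts are named below by genotype and replicate number. A level is the log2 signal of a probe relative to the 75th percentile of its array, so a level of 0 lies at that percentile and a difference of 1 is a doubling of signal.

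On the 8 arrays 59.5% to 64.9% of probes were well above background, and none had a saturated spot. The 75th percentile itself was at an intensity of 939 to 1033 on the WT arrays and 777 to 906 on the SIRT1 KO arrays. Slide and scan day went with genotype, 1 genotype on each, and cannot be told apart from it here. All 18 cardiomyocyte genes looked at were well above background in all 8 hearts, as the tissue label implies. The brighter of the 2 Sirt1 probes stood at 0.04 ± 0.19 in WT and 0.58 ± 0.14 in SIRT1 KO hearts (SD, n = 4 each) and the dimmer at -0.20 ± 0.06 and -0.31 ± 0.22. The first was thus higher in the hearts labelled SIRT1 KO (log2 difference 0.54 ± 0.11 SE, adjusted p = 0.0323, limma) and the second did not pass the test (-0.11 ± 0.11, adjusted p = 0.589). Where these probes lie relative to the deleted part of the gene is not given in the sources used here, so they check nothing and the genotypes are those of the labels.

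Hepatocytes supply most of the protein dissolved in plasma, from albumin and its fetal relative alpha-fetoprotein to carriers of iron, haem, retinol and lipid, the clotting factors and the protease inhibitors that hold them in check. These genes share a small set of liver-enriched transcription factors, among them HNF1, HNF4, FOXA and C/EBP proteins, which bind close to the start sites. The fetal liver is at the same time the main site of red cell formation in the embryo.

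RefSeq promoter windows (build GRCm38.p6, 250 bases before to 50 after the start) were found for 25 of the 34 genes and searched on both strands for the letters GTTAAT (the core of an HNF1 element), TTGCNNAA (the core of a C/EBP element) and TATAAA, a core promoter element. GTTAAT was found in the windows of 9 of the 25 members (36%) and of 8.24% of all genes with a window. TTGCNNAA was found in 13 members (52%) and 12.2% of all genes, and TATAAA in 9 members (36%) and 15.7%. The promoters shown are the 5 that hold both GTTAAT and TTGCNNAA, namely Alb at chr5:90460620-90460869 on the plus strand, Afp at chr5:90490464-90490713 on the plus strand, Fga at chr3:83025903-83026152 on the plus strand, Fgb at chr3:83049864-83050113 on the minus strand and Fabp1 at chr6:71199629-71199878 on the plus strand. They are followed by Itih4 at chr14:30886226-30886475 on the plus strand, which was above background in SIRT1 KO hearts alone, and Tat at chr8:109990186-109990435 on the plus strand, which departed most from the shared order of the hearts. Each line gives the 250 bases before the start in the direction of transcription, and capitals mark a match to any of the 3 motifs on either strand.
Alb: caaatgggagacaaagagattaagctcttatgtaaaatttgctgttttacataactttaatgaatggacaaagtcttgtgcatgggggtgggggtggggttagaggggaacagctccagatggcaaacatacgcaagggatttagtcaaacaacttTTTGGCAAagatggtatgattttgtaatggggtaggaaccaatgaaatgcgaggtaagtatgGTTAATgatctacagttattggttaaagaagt
Afp: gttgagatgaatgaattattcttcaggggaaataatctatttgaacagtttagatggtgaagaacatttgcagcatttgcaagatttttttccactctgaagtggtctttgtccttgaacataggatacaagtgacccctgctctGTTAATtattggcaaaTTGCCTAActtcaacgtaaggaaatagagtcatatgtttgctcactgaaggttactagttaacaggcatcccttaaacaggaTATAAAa
Fga: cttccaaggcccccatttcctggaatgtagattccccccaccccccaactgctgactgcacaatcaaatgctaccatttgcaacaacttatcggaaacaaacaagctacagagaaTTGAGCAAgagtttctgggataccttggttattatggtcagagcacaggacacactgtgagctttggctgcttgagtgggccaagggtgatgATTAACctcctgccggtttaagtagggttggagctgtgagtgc
Fgb: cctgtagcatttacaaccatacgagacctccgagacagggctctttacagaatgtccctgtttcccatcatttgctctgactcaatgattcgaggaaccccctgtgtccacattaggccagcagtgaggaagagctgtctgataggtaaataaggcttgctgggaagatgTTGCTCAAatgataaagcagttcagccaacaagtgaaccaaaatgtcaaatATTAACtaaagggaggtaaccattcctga
Fabp1: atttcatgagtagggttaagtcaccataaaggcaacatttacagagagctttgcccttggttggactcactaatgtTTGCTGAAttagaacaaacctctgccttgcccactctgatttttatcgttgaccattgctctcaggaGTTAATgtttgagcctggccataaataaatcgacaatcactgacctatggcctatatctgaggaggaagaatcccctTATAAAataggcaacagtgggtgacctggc
Itih4: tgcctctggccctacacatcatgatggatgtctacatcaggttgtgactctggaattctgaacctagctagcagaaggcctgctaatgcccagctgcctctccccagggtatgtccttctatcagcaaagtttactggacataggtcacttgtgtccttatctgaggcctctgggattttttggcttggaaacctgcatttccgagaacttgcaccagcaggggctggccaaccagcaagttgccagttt
Tat: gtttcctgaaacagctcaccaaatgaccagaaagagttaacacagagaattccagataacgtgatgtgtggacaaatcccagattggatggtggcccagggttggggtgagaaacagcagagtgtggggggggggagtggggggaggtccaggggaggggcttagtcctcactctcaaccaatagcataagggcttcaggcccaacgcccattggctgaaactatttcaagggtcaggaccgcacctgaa
The printed stretches of Itih4 and Tat hold no match to any of the 3 motifs, while a TATAAA match of Itih4 runs past the end of its line. Itih4 and Tat were picked by their levels and do not stand for all members without a match. The window of Itih3 also holds neither GTTAAT nor TTGCNNAA, yet Itih3 had the same 3 highest hearts as Alb. Vtn, in which the genotypes did not overlap, holds GTTAAT. A link between motifs and levels was not tested. A match describes letters in this window and was not taken as a site in use.

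Signal of most of the 34 genes was found in every heart, and 2 SIRT1 KO hearts carried far more of it than the others. Members well above background on any probe numbered 34 in SIRT1 KO heart 1, 32 in SIRT1 KO heart 4, 29 in SIRT1 KO heart 2, 28 in WT heart 4, 27 in each of WT hearts 1 to 3 and 26 in SIRT1 KO heart 3. For 28 members the brightest probe was well above background in at least 4 of the 8 hearts, and for 24 in all 8. In these 28 the mean level relative to each gene's median heart, called the member index, was 2.56 in SIRT1 KO heart 1, 1.61 in SIRT1 KO heart 4, 0.53 in WT heart 4 and 0.09 in SIRT1 KO heart 2. It was -0.13 in WT heart 1, -0.47 in SIRT1 KO heart 3, -0.68 in WT heart 2 and -0.82 in WT heart 3. The index spanned 3.39 log2 units, and the genotypes overlapped, with SIRT1 KO hearts 2 and 3 between the WT hearts. In whole hearts, more hepatocyte-type cells and more such RNA per cell cannot be told apart.

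The order of the hearts was nearly the same from gene to gene. SIRT1 KO heart 1 was the highest for 27 of the 28 members, the exception being Tat, and SIRT1 KO heart 4 was second for all 28. WT heart 4 was the third for 25. WT heart 3 was the lowest for 19 of the 27 members measured in both genotypes, which leaves out Itih4, not well above background in any WT heart. Among all 13590 named genes tested, 13.7% were highest in SIRT1 KO heart 1. The median range from the lowest to the highest heart was 3.75 over these 27 against 0.45 over all named genes tested, and 26 of the 27 (96.3%) spanned more than 2 log2 units against 2.65% of all.

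**Figure D1:**
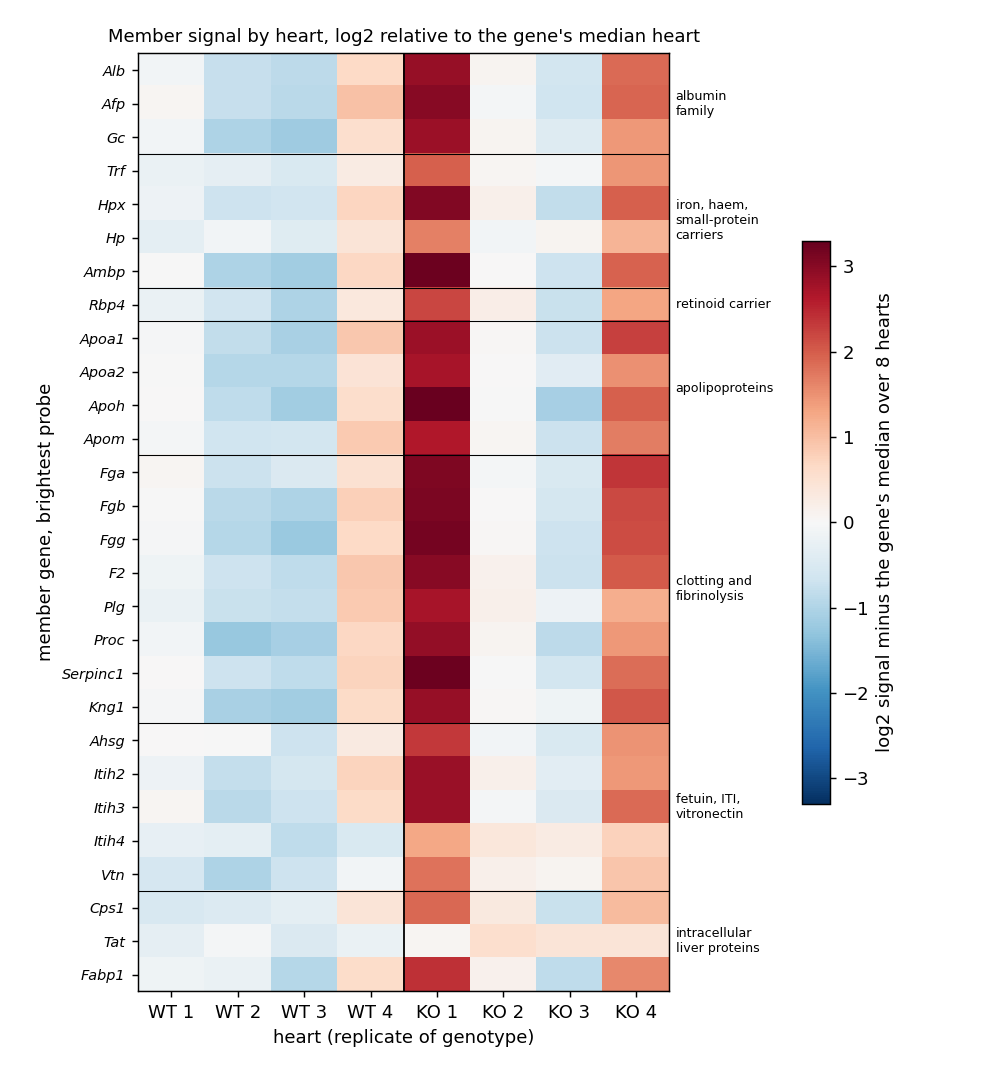
Level of the 28 members whose brightest probe was well above background in at least 4 of 8 hearts, one row per gene grouped by role and one column per heart, coloured by log2 signal minus the gene's median over the 8 hearts. SIRT1 KO hearts 1 and 4 (member index 2.56 and 1.61) and then WT heart 4 (0.53) are the warm columns in nearly every row, while Tat departs from that order and the WT readings of Itih4 are not above background.

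The steps between neighbouring hearts were unequal and varied from gene to gene. From WT heart 3, the lowest, to SIRT1 KO heart 1, the highest, the members differed by a median of 3.61, from 0.54 for Tat to 4.40 for Apoh. SIRT1 KO heart 1 exceeded SIRT1 KO heart 4 by a median of 0.96, in 27 of 28 members, from -0.35 for Tat to 1.52 for Plg. SIRT1 KO heart 4 exceeded WT heart 4 by 1.13, in all 28, from 0.34 for Plg to 1.85 for Fga. Within the WT group alone, heart 4 exceeded heart 3 by 1.52, in all 27 members measured in both genotypes. The next steps were smaller and less even, 0.57 from SIRT1 KO heart 2 to WT heart 4 (25 of 28 members), 0.17 from WT heart 1 to SIRT1 KO heart 2 (22 of 28) and 0.54 from SIRT1 KO heart 3 to WT heart 1 (22 of 28). Among the lowest hearts the spread over members exceeded the step, at 0.23 with an SD of 0.39 from WT heart 2 to SIRT1 KO heart 3 and, over those 27, 0.13 with an SD of 0.26 from WT heart 3 to WT heart 2.

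The albumin family opened the role groups with the plainest form of this pattern. Alb, the chief protein of plasma, read 1.37, 0.69, 0.59 and 2.11 in WT hearts 1 to 4 and 4.33, 1.54, 0.85 and 3.32 in SIRT1 KO hearts 1 to 4. Afp, its fetal counterpart, read 1.83, 1.00, 0.87 and 2.72 in WT hearts 1 to 4 and 4.77, 1.69, 1.11 and 3.69 in SIRT1 KO hearts 1 to 4. In both genes SIRT1 KO hearts 2 and 3 lay among the WT hearts, and the highest heart exceeded the lowest 13.4-fold and 14.9-fold. Gc, the vitamin D-binding protein and the last of the family, spanned 16.1-fold between the same hearts. The 3 genes lie close together on the chromosome, Afp and Gc each within 5 protein-coding genes of Alb.

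The carriers of iron, haem and small proteins followed with unequal ranges. Ambp, the precursor of alpha-1-microglobulin and bikunin, read -0.40, -1.42, -1.55 and 0.29 in WT hearts 1 to 4 and 2.84, -0.39, -1.08 and 1.55 in SIRT1 KO hearts 1 to 4, a 21-fold span. Trf, transferrin, read -0.60, -0.67, -0.87 and -0.10 in WT hearts 1 to 4 and 1.59, -0.31, -0.43 and 1.09 in SIRT1 KO hearts 1 to 4. Its span was 5.5-fold, and that of Hp, haptoglobin, 4.14-fold, the narrowest of this group. Transferrin is also made outside the liver. Hpx, the haem carrier hemopexin, spanned at least 14.7-fold, since its lowest reading, in SIRT1 KO heart 3, was not well above background.

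Of the hormone and retinoid carriers, 1 of 3 was bright enough to be compared throughout. Rbp4, the retinol carrier, read -0.53, -0.96, -1.33 and 0.03 in WT hearts 1 to 4 and 1.88, -0.10, -1.06 and 0.98 in SIRT1 KO hearts 1 to 4, a 9.28-fold span. Ttr, which carries thyroid hormone and binds Rbp4, read -6.74, -6.33, -6.26 and -6.21 in WT hearts 1 to 4 and -3.71, -5.58, -6.69 and -4.80 in SIRT1 KO hearts 1 to 4, and was well above background in SIRT1 KO hearts 1 and 4 alone, so that the other readings only bound its level. Serpina6, the corticosteroid carrier, was well above background in SIRT1 KO heart 1 alone, at -3.96.

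Among the apolipoproteins, the protein part of lipid particles, the pattern was again that of Alb. Apoh, beta-2-glycoprotein I, read -1.82, -2.67, -2.98 and -1.24 in WT hearts 1 to 4 and 1.42, -1.83, -2.94 and 0.14 in SIRT1 KO hearts 1 to 4, and its 21.2-fold span was the widest of the 28 members. Apoa2, of high-density lipoprotein, read -2.84, -3.74, -3.76 and -2.36 in WT hearts 1 to 4 and -0.10, -2.79, -3.19 and -1.32 in SIRT1 KO hearts 1 to 4. In Apoh, SIRT1 KO heart 3 was within 0.05 of the lowest WT heart, and in Apoa2 it lay between the WT hearts. Apoa1 and Apom spanned 14.8-fold and 10.2-fold. Apob, the scaffold of low-density lipoprotein, was well above background in 3 hearts on its brightest probe, SIRT1 KO hearts 1 and 4 and WT heart 4.

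The clotting and fibrinolysis genes had a role mean 3.94 higher in the highest than in the lowest heart. Fgb, the fibrinogen beta chain, read 0.42, -0.45, -0.60 and 1.22 in WT hearts 1 to 4 and 3.55, 0.45, -0.15 and 2.62 in SIRT1 KO hearts 1 to 4. Fgg, the gamma chain, read 0.25, -0.67, -0.93 and 0.94 in WT hearts 1 to 4 and 3.43, 0.32, -0.40 and 2.42 in SIRT1 KO hearts 1 to 4. Proc, the anticoagulant protein C, read -3.78, -4.93, -4.78 and -3.01 in WT hearts 1 to 4 and -0.80, -3.60, -4.56 and -2.25 in SIRT1 KO hearts 1 to 4. In all 3 the order was SIRT1 KO heart 1, SIRT1 KO heart 4 and then WT heart 4, with spans of 17.7-fold, 20.6-fold and 17.5-fold. F2 (prothrombin), Plg (plasminogen), Serpinc1 (antithrombin) and Kng1 (kininogen) spanned 11.3-fold for Plg to 16.9-fold for Serpinc1. Fga, the fibrinogen alpha chain, spanned at least 13.9-fold, since its reading in SIRT1 KO heart 3 was not well above background. Hrg, histidine-rich glycoprotein, was highest in SIRT1 KO heart 4 at -4.39 rather than in SIRT1 KO heart 1 at -4.51, and was not well above background in any WT heart. The fibrinogen genes Fga, Fgb and Fgg lie within 5 protein-coding genes of each other on the chromosome, as do Kng1, Hrg and Ahsg.

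In the group of fetuin, the inter-alpha-trypsin inhibitor heavy chains and vitronectin, the genes parted from one another. Ahsg, fetuin-A, read 3.42, 3.41, 2.73 and 3.71 in WT hearts 1 to 4 and 5.74, 3.34, 2.91 and 4.90 in SIRT1 KO hearts 1 to 4. Here WT hearts 1 and 2 were alike and WT heart 4 little higher, so that SIRT1 KO hearts 1 and 4 alone stood apart. Vtn, vitronectin, an adhesion protein also of the extracellular matrix, read -1.40, -1.88, -1.55 and -0.95 in WT hearts 1 to 4 and 0.93, -0.71, -0.78 and 0.05 in SIRT1 KO hearts 1 to 4. All 4 SIRT1 KO hearts lay above all 4 WT hearts in Vtn, the lowest of them at -0.78 against the highest WT heart at -0.95. Itih2 and Itih3, which code for heavy chains that bikunin is joined to, spanned 12.3-fold and 13.2-fold with the same 3 highest hearts as Alb, and both were lowest in WT heart 2 rather than WT heart 3. Itih1, a further heavy chain, was well above background in SIRT1 KO heart 1 alone.

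Itih4, a related acute-phase protein, read -5.85, -5.89, -6.41 and -6.07 in WT hearts 1 to 4 and -4.30, -5.21, -5.29 and -4.81 in SIRT1 KO hearts 1 to 4. The readings of the genotypes did not overlap. It was well above background in 4 of 4 SIRT1 KO hearts and in no WT heart, so the WT readings only bound its level and have no order among themselves.

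The role mean of the proteins that stay in the hepatocyte spanned 2.04 over 3 genes in the fit, of which Fabp1 spanned 10.3-fold, Cps1 at least 6.15-fold and Tat 2.04-fold. Fabp1, the liver fatty-acid-binding protein, read -2.09, -2.16, -2.89 and -1.34 in WT hearts 1 to 4 and 0.47, -1.81, -2.79 and -0.37 in SIRT1 KO hearts 1 to 4. Cps1, the first enzyme of the urea cycle, read -5.12, -5.03, -4.92 and -4.17 in WT hearts 1 to 4 and -2.69, -4.25, -5.32 and -3.55 in SIRT1 KO hearts 1 to 4. Both kept SIRT1 KO hearts 1 and 4 on top with SIRT1 KO heart 3 within or under the WT hearts, where its Cps1 reading was not well above background. Tat, tyrosine aminotransferase, read -5.0, -4.77, -5.18 and -4.93 in WT hearts 1 to 4 and -4.64, -4.15, -4.29 and -4.29 in SIRT1 KO hearts 1 to 4. In Tat the highest heart was SIRT1 KO heart 2, SIRT1 KO heart 1 was the lowest of its genotype, and all SIRT1 KO hearts lay above all WT hearts. Mat1a, the liver S-adenosylmethionine synthetase, was well above background in 3 of 4 SIRT1 KO and in no WT heart.

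**Figure D2:**
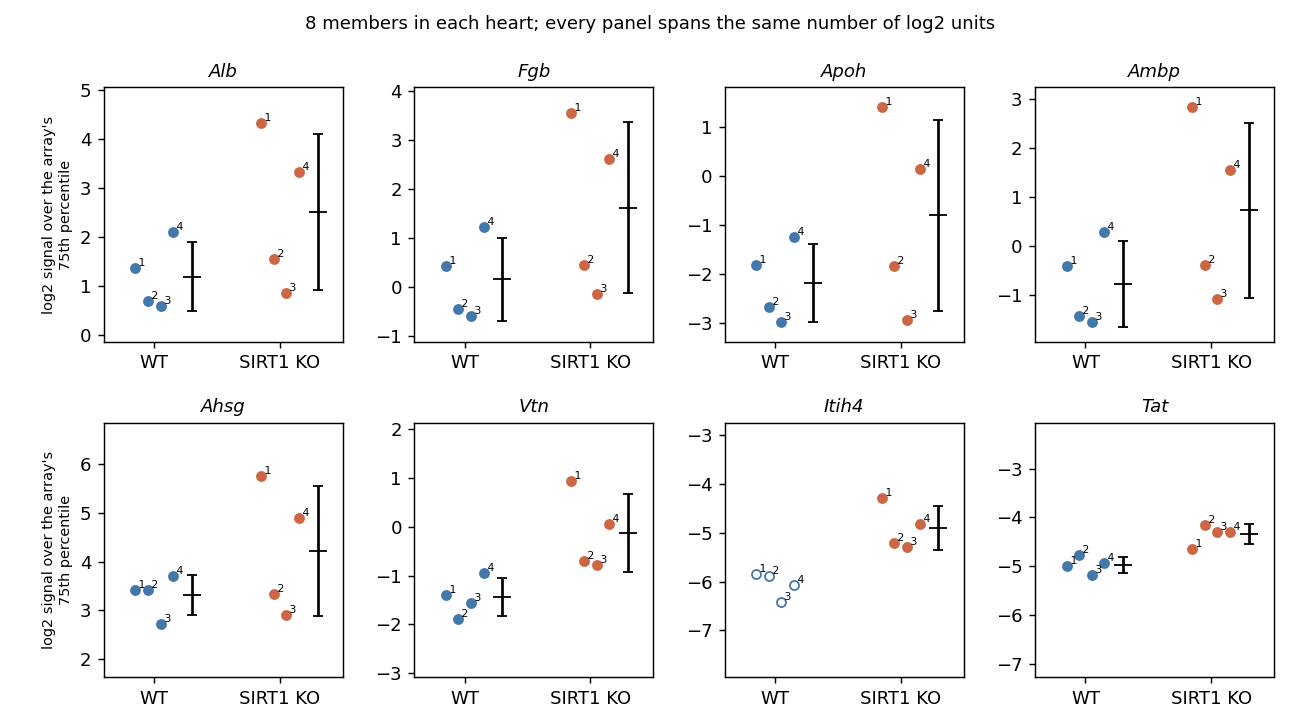
Levels of 8 members in each heart, as log2 signal over the array's 75th percentile; points are hearts numbered by replicate (open where the probe was not well above background in any heart of the genotype), bars show the mean and SD of 4 measured hearts, and all panels span the same number of log2 units. Alb, Fgb, Apoh, Ambp and Ahsg show SIRT1 KO hearts 1 and 4 apart from overlapping remaining hearts, while in Vtn and Tat all SIRT1 KO hearts lie above the WT hearts and Itih4 has no measured WT level.

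For a probe below background in a whole genotype only a lower limit of the difference was given, as the brighter group's mean over the dim group's mean of, per array, the higher of the lowest signal among probes well above background and the probe's own signal. On that measure the SIRT1 KO mean was at least 1.97-fold higher for Mat1a and at least 1.57-fold higher for Hrg, each with 3 of 4 SIRT1 KO hearts measured. It was at least 1.46-fold higher for Ttr with 2 hearts measured and at least 1.01-fold higher for Serpina6 with 1. For Itih4, with all 4 measured, it was at least 1.78-fold higher. Itih1 allowed no such limit. Measured the same way, heart by heart, Apob in SIRT1 KO heart 1 was at least 8.57-fold above the mean of the 5 hearts where it was not well above background. For Ttr, SIRT1 KO heart 1 was at least 3.82-fold above the 6 such hearts.

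Where a member had several probes, the probes gave the same highest heart when they were above background. Plg, Serpinc1 and Kng1 had 2 probes each, all highest in SIRT1 KO heart 1. The Plg probes spanned 3.50 and 3.82 log2 units and the Kng1 probes 4.01 and 4.25. The Serpinc1 probes disagreed in size, at 4.07 on the brighter and 2.03 on the dimmer. On the dimmer all SIRT1 KO hearts lay above all WT hearts (log2 difference 0.85 ± 0.27 SE), where the genotypes did not overlap for 13.7% of all probes tested. On the brighter the genotypes overlapped (1.31 ± 0.78). Of the 5 Apob probes, the 2 that were well above background in 3 hearts spanned 4.19 and 4.58, 1 was above background in 1 heart, and the other two in none.

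Between genotypes, all 28 members had a higher mean in SIRT1 KO than in WT hearts. Since the levels on these arrays chose the members, single differences are given with their errors, and the threshold counts below describe the members without testing them. The fitted log2 differences (SIRT1 KO minus WT) ranged from 0.63 for Tat to 1.60 for Kng1 with a median of 1.30, beside a median of 0.01 over all 25615 probes tested. In the fit over all probes (limma, Benjamini-Hochberg adjustment, adjusted p of 0.05) the members past the threshold were Tat and Itih4, both higher in SIRT1 KO, the second of which entered the fit through its SIRT1 KO hearts alone. That is 2 of 28 members, where 4.88% of all probes tested passed, 3.97% as higher and 0.91% as lower. At an unadjusted p of 0.05 the count was 5 of 28 (21.5% of all probes), and it was 3 to 28 under the alternatives that kept these 28 members. On the brightest probe the genotypes did not overlap for 3 of 28 members, Itih4, Vtn and Tat (13.7% of all probes). Nothing is read from these counts.

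Tat, with the smallest error of the members, differed by 0.63 ± 0.12 (SE), with levels of -4.97 ± 0.17 in WT and -4.34 ± 0.21 in SIRT1 KO hearts (SD, n = 4 each). Itih4 has only the lower limit of 1.78-fold given above.

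The remaining members had larger errors. Vtn differed by 1.32 ± 0.37 (SE) and Kng1 by 1.60 ± 0.70. The errors given here take no account of the replicate number. With that number as a block, Vtn and Kng1 also passed the threshold, and 26 of 28 members had an unadjusted p under 0.05 in limma. Whether the number pairs the hearts cannot be told here. Alb had levels of 1.19 ± 0.70 in WT and 2.51 ± 1.60 in SIRT1 KO hearts (SD, n = 4 each), and its difference of 1.32 ± 0.72 had a 95% confidence interval of -0.30 to 2.94 in limma. For Apoh the interval was -0.58 to 3.33. The median standard error was 0.70 over the members and 0.11 over all probes tested. The member index was -0.28 ± 0.62 in WT and 0.95 ± 1.39 in SIRT1 KO hearts (SD, n = 4 each). The median difference of 1.30 fell to 0.67 when SIRT1 KO heart 1 was left out, and was 0.33, with 27 members higher and 1 lower, without SIRT1 KO hearts 1 and 4 and WT heart 4, which were picked for their high member levels.

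**Figure D3:**
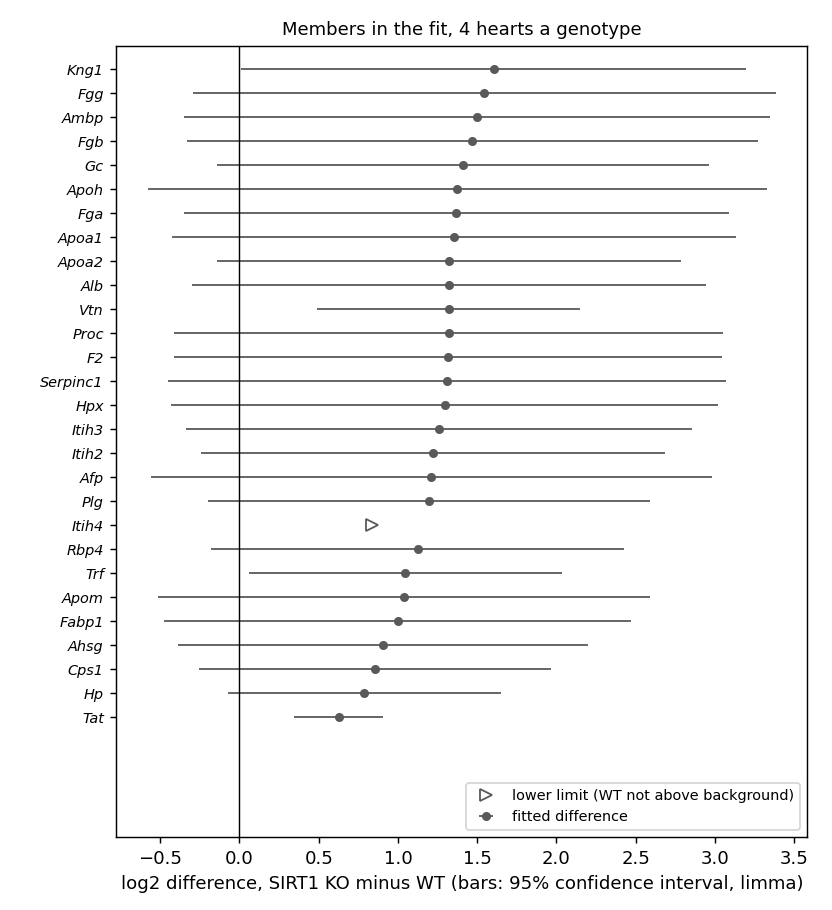
Fitted log2 difference, SIRT1 KO minus WT, of 27 members in the fit (points) with 95% confidence intervals from limma (bars, 4 hearts a genotype), in order of the fitted difference; Itih4, not above background in WT, is an open triangle at its lower limit of 1.78-fold. All points are above 0; the intervals of Tat, Vtn, Trf and Kng1 stay above 0 and the rest cross it. The members were chosen on these arrays, so the intervals are a description.

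Other hepatocyte genes, listed apart from the members, varied with them. Of 53 secreted products 20 were in the fit and 18 of those were highest in SIRT1 KO heart 1, and of 29 intracellular or membrane products 15 were in the fit and 14 highest there. Their list medians ran in the same order as the members' over the 4 highest hearts. The secreted list read 2.08 in SIRT1 KO heart 1, 1.02 in SIRT1 KO heart 4, 0.18 in WT heart 4 and 0.09 in SIRT1 KO heart 2, and -0.12 to -0.58 in the others. The other list read 2.07, 0.98, 0.37 and 0.13 in the same hearts. The signal of the members summed over genes was 14.4 to 36.0 times the 75th percentile in WT hearts and 17.4 to 156.7 in SIRT1 KO hearts. That of the secreted list was 2.64 to 6.90 and 3.69 to 29.2, and that of the intracellular list 1.17 to 2.37 and 1.27 to 6.86. The part of other liver transcripts in the members' levels was not tested.

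All 35 of these genes had a higher mean in SIRT1 KO, and 4 passed the threshold, beside 4.88% of all probes tested (3.97% as higher). The gene lists here and below were drawn up with earlier results of these data known, so their p-values are no independent support. With quantile normalization 1 passed, and by the methods' t-test with Benjamini-Hochberg adjustment 0. The 4 were Lcat, the cholesterol-esterifying enzyme of plasma (0.58 ± 0.12 SE, adjusted p = 0.0256), Saa1, an acute-phase protein (0.87 ± 0.16, 0.016), Cyp3a11, a drug-metabolizing cytochrome (0.78 ± 0.14, 0.0146), and Asgr1, a subunit of the asialoglycoprotein receptor (0.81 ± 0.19, 0.0424), all by limma. Like Tat, Lcat had a narrow range, from -4.98 in WT heart 2 to -4.09 in SIRT1 KO heart 4. Serpina1d, an alpha-1-antitrypsin and a brighter gene that followed the members more closely, did not pass, at 1.32 ± 0.74 (adjusted p = 0.341, limma). The Serpina1 genes are near-identical copies, so which of them the Serpina1d probe read is uncertain.

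The medians of the lists for other tissues and for liver transcription factors varied less over the hearts than those of the hepatocyte lists, though single genes could vary more. Of the liver transcription factors Hnf4a, Foxa3 and Nr1i2 were not well above background in any heart, and the 4 in the fit had list medians from -0.10 to 0.11. The summed signal of this list was 0.82 to 0.91 in WT and 0.995 to 1.40 in SIRT1 KO hearts. Of its 10 genes with a probe, 4 were well above background in each WT heart and 4 to 6 in SIRT1 KO hearts. Nr1i3, the receptor CAR, was the 1 of these 4 that passed, at 1.78 ± 0.29 (SE, adjusted p = 0.0102, limma), beside 4.88% of all probes tested. Its range over the hearts was 2.56 log2 units. Nr1h4, Nr5a2 and Nr0b2 were at -0.10 ± 0.11, -0.23 ± 0.15 and -0.25 ± 0.14 (SE), and the median of the 4 was -0.16. The erythroid list stood at 0.49 in SIRT1 KO heart 1 and between -0.13 and 0.23 in the other hearts, with 6 of 11 genes highest in SIRT1 KO heart 1. All 16 of its genes with a probe were well above background in SIRT1 KO heart 1. In each WT heart 11 were, and in the other SIRT1 KO hearts 10 to 13. Epor was the 1 of 11 that passed, as higher in SIRT1 KO (adjusted p = 0.0154, limma). The summed signal of the erythroid list, made up mostly of globin, was 510.7 to 559.0 in WT and 441.5 to 539.1 in SIRT1 KO hearts. Summed cardiomyocyte signal was 2757 to 2922 and 2687 to 3237. Of the other-tissue markers, 3 to 5 of 9 intestine and 1 to 4 of 10 lung genes were well above background in a heart. The intestine list stood at 0.35 in SIRT1 KO heart 1 and -0.28 to 0.10 in the others, and its part in the members' levels was not tested. Cdx1, Cdx2 and Cdh17 of intestine and Sftpb, Sftpa1, Sftpd, Nkx2-1 and Slc34a2 of lung were not well above background in any heart.

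**Figure D4:**
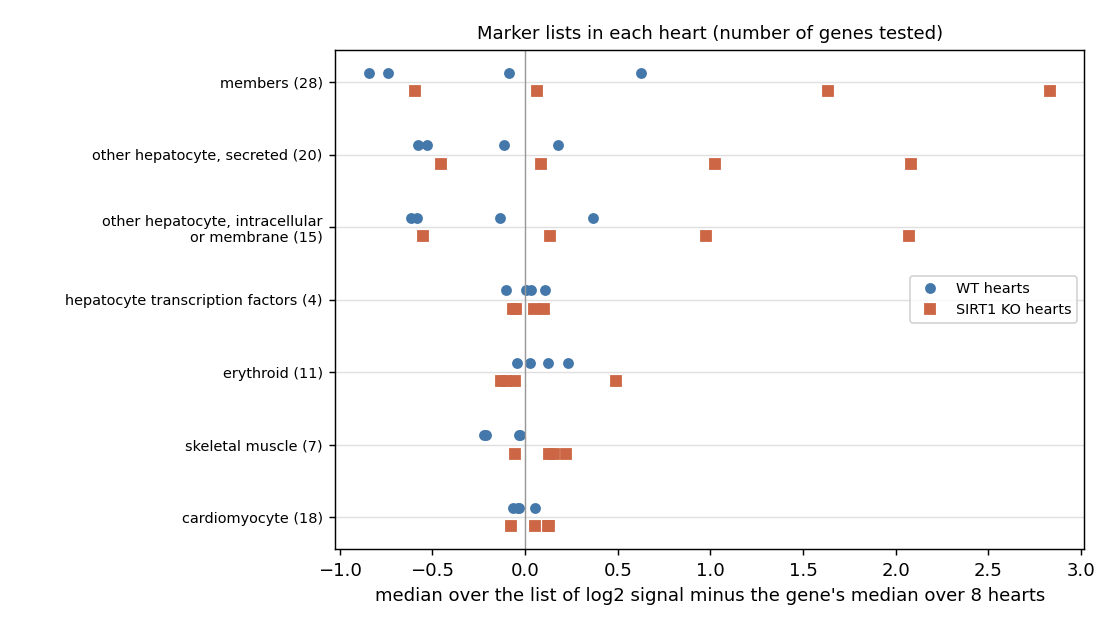
Median over each gene list of the log2 signal minus the gene's own median over 8 hearts, one point per heart (circles WT, squares SIRT1 KO), with the number of genes tested in brackets. The members and both lists of other hepatocyte genes reach above 2 in SIRT1 KO heart 1, while the cardiomyocyte, skeletal muscle and liver transcription factor lists stay between -0.22 and 0.22 and the erythroid list reaches 0.49.

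Likeness of single genes to the member index was measured by Pearson's r over the 8 hearts among the 1530 named genes with a range of at least 1 log2 unit. It is a description, since the members make up the index, the hearts share their arrays and genotypes, and SIRT1 KO hearts 1 and 4 carry much of it. r was over 0.9 for 26 of 28 members, 14 of 18 secreted and 9 of 14 intracellular hepatocyte genes, and 5.10% of all genes ranked. Alb was closest at 0.999, followed by Fgg and Ambp at 0.998. Without SIRT1 KO hearts 1 and 4, r was over 0.9 for 21 members, 7 secreted and 5 intracellular genes, and 2.94% of all ranked. The member that departed most was Tat (r = 0.29, and 0.18 without those hearts). Itih4 stood at 0.82, but 4 of its 8 readings were not well above background and have no order. Vtn and Hp kept 0.61 and 0.67 without those hearts, whereas Alb kept 0.996.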

How the data were processed

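RNA of 8 hearts (4 WT, 4 SIRT1 KO) was hybridised singly to one-color Agilent whole mouse genome oligo arrays. The deposited intensity is the authors' Cy3 processed signal per spot from Agilent Feature Extraction (version 12.0.0.7 per the file headers, which differs from the version named in the methods), background-subtracted, detrended and not normalized between arrays. The authors' value table equalled it at 100% of spots.

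Spots flagged as outliers and control spots were left out, spots of a probe were averaged, and log2 signal minus the array's 75th percentile over non-control spots was used. Probes were named through their accession in RefSeq genes (GRCm38.p6), used for names and gene order only, which named 28215 of 41174 probes (68.5%). A gene was read on its probe with the highest mean. The 25615 probes flagged well above background on 4 or more arrays were tested between genotypes with lmFit and eBayes of limma 3.58.1 in R 4.3.3, with Benjamini-Hochberg adjustment and an adjusted p of 0.05, after the script was tested on simulated data. Values were collated with Python 3.11.15, pandas 2.3.3 and numpy 2.4.6.

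The members, gene lists and tests were chosen with earlier results of these data known. Members with values in every heart are the 2 brightest of each role, those past the threshold and the 5 with the widest range. Other hepatocyte genes named by their difference are those past the threshold and 1 example from the 8 brightest. Embryos count as replicates from the labels, and their number, 4 per genotype, limits the precision. Alternatives covered background correction, scaling, filters, probe choice, array weights, a replicate block, the methods' analysis of variance (run as a t-test) and each heart left out. No column of per-sample values was set aside.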

Additional observations from a re-analysis of the deposited data

Results flagged for a closer look

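Of 58 sets of 4 hearts (the member index, a named member or the median of a gene list in 1 genotype) in which a single heart could be far from the rest, 1 was. The median of the erythroid list was 0.49 in SIRT1 KO heart 1 and -0.13 to -0.05 in the other SIRT1 KO hearts, a gap of 0.882 of the whole range, above Dixon's limit for 4 samples. Chance alone flags about 1 in 20 such sets. The same heart had the highest member levels, and the part of red cell precursors in those levels was not tested. Hba-a1 and Hbb-bt, the brightest erythroid genes, read 7.68 and 8.23 in that heart, beside 7.40 to 7.71 and 8.05 to 8.33 in the other SIRT1 KO hearts. Hemgn and Kel, 2 dimmer genes of that list, read -2.21 and -2.59 in that heart and at most -3.66 and -3.76 in the other SIRT1 KO hearts.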

How the results depend on the processing

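The members called (2) became 0 with quantile normalization (4 at an unadjusted p of 0.05 in limma), 0 by the methods' t-test after Benjamini-Hochberg (3 unadjusted), 0 at an adjusted p of 0.01 (5 unadjusted), 1 with no filter on dim probes, 1 with the filter at all 8 arrays, and 0 to 3 when single hearts were dropped (leave-one-out; 0 without WT heart 3 or 4, 3 without SIRT1 KO heart 3). Tat was the gene lost with no filter and Itih4 the gene lost with the filter at all 8 arrays. With normexp on the median signal 3 members were called, Vtn being added, and 25 of 28 had an unadjusted p under 0.05 in limma. With single hearts dropped 3 to 28 of 28 had one, the highest count without SIRT1 KO heart 3. The other hepatocyte genes called (4) became 8 with normexp on the median signal, 1 with quantile normalization, 2 with no scaling, 2 with no filter, 0 by the methods' t-test, 0 at an adjusted p of 0.01, and 1 to 5 with each heart left out. Without the 3 hearts highest in the member index, an alternative chosen after seeing the data as normexp on the median signal was, the counts were 0 (5 unadjusted) and 1, and Ahsg turned to -0.063. All members in the fit stayed higher in SIRT1 KO under every alternative other than that, and the median difference was 0.98 to 1.31 under the settings that keep all hearts and 0.67 to 1.78 with 1 left out. The order of the 5 highest hearts in the member index was the same under all settings that keep all hearts; with no scaling SIRT1 KO heart 3 was the lowest.

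With the replicate number as a block, 4 members were called (Kng1, Itih4, Vtn and Tat), 26 of 28 had an unadjusted p under 0.05 against 5 without the block, and 5 other hepatocyte genes were called. Same-numbered hearts correlated at 0.0562 to 0.207, and every heart correlated best with its own number, which is also the position on the slide. Whether the number pairs the hearts cannot be told from this, and the main fit left it out.

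Over all probes 1250 were called (1017 higher, 233 lower), against 2566 with normexp, 1904 with median scaling (676 and 1228), 6352 with no scaling (639 and 5713), 2277 with array weights, 553 by the methods' t-test and 412 at an adjusted p of 0.01; quantile normalization gave 672 and 379. Median scaling and no scaling moved the median of all probes to -0.12 and -0.21, and the members to 1.17 and 1.08. The planned normexp on the mean signal was not run, since that column was not among those used here. Signal over background limits 7 members to bounds or no test. The causes of these changes were not tested.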

Other observations

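Outside all the lists, the 10 named genes closest to the member index over the 8 hearts were Cyp2d26, Aadac, Cyp2c40, Akr1b7, Cyp2d10, Tff3, Cyp2c70, 1300017J02Rik, Gsta3 and Prodh2, with Pearson's r of 0.996 for Cyp2d26 down to 0.973 for Prodh2. Of these, 4 are cytochromes P450 (Cyp2d26, Cyp2c40, Cyp2d10 and Cyp2c70), Gsta3 is a glutathione S-transferase, and Aadac is an esterase of the endoplasmic reticulum. Cyp2d26 read -1.87, -2.69, -2.76 and -1.05 in WT hearts 1 to 4 and 0.81, -1.71, -2.33 and -0.06 in SIRT1 KO hearts 1 to 4, the same order of hearts as the index (Spearman's rho = 1). Without SIRT1 KO hearts 1 and 4 its r was 0.997, and that of the 10 was lowest for Prodh2 at 0.843. Aadac was well above background in 5 of the 8 hearts and Akr1b7, Tff3 and Prodh2 in 6, and the other named genes in all 8. The genes were ranked on the same hearts as the index, so the ranking carries no test.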
